A study of Mus musculus with 18 samples.

Results

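The cytosolic ribosomal proteins were examined as a family of 77 genes, 46 encoding proteins of the large subunit and 31 encoding proteins of the small subunit, in RNA-Seq data from laser microdissected (LMD) colonic epithelial cells. Members were taken by name from the 55453 gene names in the count tables. A name qualified if it was Rpl or Rps followed by a number, with or without a closing a or x, or if it was Rplp0, Rplp1, Rplp2, Rpsa or Rps3a1. Names ending in -ps and a number, which mark pseudogene copies, did not qualify and are described separately. The naming rule uses no measured value, but the family was chosen with earlier results of these data known. All 77 members passed the filter on low counts and were tested together with the other genes, 20787 in all.

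Mice of all groups were female Swiss Webster animals that had been given azoxymethane (AOM), a carcinogen of the colon, at 7 weeks of age, and from 9 weeks on 4 cycles of dextran sulfate sodium (DSS), an agent that injures the colonic lining. A cycle consisted of 7 days on 2% DSS and 14 days on plain water. Between 11 and 27 weeks of age the chow held either 8 or 0 mg/kg folic acid (FA), where the basal chow had held 2 mg/kg. Cells of polypoid dysplasia (P) or of epithelium without dysplasia (ND) were cut from fixed, embedded colons and 40 ng of RNA entered each library, which gave the groups 8P (n = 5), 0P (n = 4), 8ND (n = 5) and 0ND (n = 4). The labels do not tie libraries to mice, so P and ND libraries may share animals, and p-values measure the spread between these samples only.

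Libraries held 3500947 to 17048524 counts on genes. Between 40.1 and 62.2% of the reads in a table stood in the summary line for reads with more than 1 alignment, and 22 to 40.7% in the line for reads on no gene. All 14 markers of colonic epithelium were detected, and their summed level was 4084 to 6162 CPM in 8P, 4283 to 6731 CPM in 0P, 12342 to 17071 CPM in 8ND and 8841 to 11401 CPM in 0ND. Muc2, the mucin of goblet cells, made up much of this sum in ND, with 386506 counts over 8ND and 176238 over 0ND. Over 8P and 0P it had 88176 and 62169 counts, so the sum is no measure of how much epithelium a library held. In 8ND against 0ND, 4 of the 14 markers had estimates above 0. In P against ND, 8 of them fell and 1 rose at 0 mg/kg FA, 10 fell and 1 rose at 8 mg/kg, and the rest did not pass. Markers of other cell types were present as well. All 8 smooth muscle markers were lower in P than in ND at both doses, with a summed level of 292 to 657 CPM in 8P, 410.2 to 774 CPM in 0P, 1088 to 1856 CPM in 8ND and 1093 to 2742 CPM in 0ND. All 12 B and plasma cell markers had estimates below 0 in P against ND (4 passed in 0P and 6 in 8P), with a summed level of 517 to 3398 CPM in 8P, 1116 to 1510.4 CPM in 0P, 3990.0 to 9989.8 CPM in 8ND and 2964 to 5164 CPM in 0ND. Of 7 neutrophil markers tested, 5 rose and 1 fell in P at each dose, with a summed level of 24.2 to 92.4 CPM in 8P, 30.7 to 62.4 CPM in 0P, 17.4 to 27.8 CPM in 8ND and 19.5 to 31.1 CPM in 0ND, and Elane was at 0. Of 12 fibroblast and matrix markers, 7 rose and 2 fell in 0P against 0ND, but 2 rose and 1 fell in 8P against 8ND. Their summed level was 1624 to 3879 CPM in 8P and 2553 to 3229 CPM in 0P. In ND it was 1945 to 2330 CPM in 8ND and 1653 to 1881 CPM in 0ND. Of 11 macrophage and dendritic cell markers, 2 rose in 0P and 1 fell in 8P. Of 8 endothelial markers, 1 rose and 2 fell in 0P and 2 fell in 8P. Of 10 T and NK cell markers tested, 2 fell in 0P and 1 in 8P. The part of these cells in the P against ND differences given later was not tested, and fewer cells of a type cannot be told apart from less RNA per cell in such samples.

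A cytosolic ribosome is built from ribosomal RNA and a fixed set of proteins, most of them encoded in the mouse by a single active gene and by many inactive processed copies. The large subunit forms the peptide bonds and the small subunit reads the mRNA. In growing cells such as those of the colonic crypt the mRNAs of ribosomal proteins are among the most abundant, and in mammals they start with a C followed by a run of pyrimidines, the 5′ terminal oligopyrimidine (TOP) motif, through which the kinase mTORC1 and the binding protein Larp1 set their translation together.

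Start sites of 57 of the 77 members were matched by symbol to RefSeq promoter windows (GRCm38.p6, the patched form of mm10). A C at the annotated start followed by at least 4 pyrimidines (C or T) on the coding strand was found for 13 members (22.8%), against 3.01% of the 27025 genes in that table, and a C followed by 7 pyrimidines began within 25 bases of the start for 34 members (59.6%), against 19.4%. The following 30 bases, 10 before the annotated start and 20 from it, show the motif in 7 of these 13 members, chosen because they hold it, with the starting C and its pyrimidine run in capitals, written 5′ to 3′.
Rps27: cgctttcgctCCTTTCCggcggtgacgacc
Rps10: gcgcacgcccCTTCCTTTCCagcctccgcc
Rpl35: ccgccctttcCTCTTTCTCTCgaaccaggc
Rpl35a: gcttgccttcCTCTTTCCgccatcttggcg
Rpl38: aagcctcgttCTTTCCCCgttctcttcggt
Rplp2: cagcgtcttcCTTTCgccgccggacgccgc
Rps6: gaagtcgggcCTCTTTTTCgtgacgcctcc
These windows lie at Rps27 at chr3:90213629-90213658 (minus strand), Rps10 at chr17:27635225-27635254 (minus strand), Rpl35 at chr2:39005112-39005141 (minus strand), Rpl35a at chr16:33056472-33056501 (plus strand), Rpl38 at chr11:114668570-114668599 (plus strand), Rplp2 at chr7:141447641-141447670 (plus strand) and Rps6 at chr4:86857348-86857377 (minus strand). The run counted from the start had 11 bases in Rpl35, 10 in Rps10, 9 in Rps6, 8 in Rpl35a and Rpl38, 7 in Rps27 and 5 in Rplp2. A match describes these letters only. Rpl35, Rps10, Rpl38, Rplp2 and Rps27 are described further on with their values, and Rps6 encodes the ribosomal protein that S6 kinase, an enzyme under mTORC1, phosphorylates.

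Copies of ribosomal protein genes elsewhere in the genome bear on how these mRNAs can be counted. A median of 51.7% of the 50-base windows in a member's mRNA occurred also in another annotated gene, and 41 members shared over 50% of their windows. Rps27 shared 98.6%. The coding sequence of Rps27 (252 bases) was identical in all 252 positions to that of Rps27rt, a gene on chromosome 9, so that this stretch of 60 coding bases, with no capitals because no base differs, belongs to both, at chr3:90213242-90213301 and chr9:114982642-114982701 (mm10, minus strand at each).
Rps27 and Rps27rt: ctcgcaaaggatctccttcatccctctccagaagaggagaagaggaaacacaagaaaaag
Rps2 and its processed copy Rps2-ps13 on the X chromosome, which took the highest share of its parent's counts among the named copies, had 872 of 879 coding bases in common (99.2%). Their most different 60 bases inside an exon of Rps2 follow, with the differing bases in capitals, from chr17:24720300-24720359 and chrX:52898612-52898671 (mm10, plus strand at each).
Rps2: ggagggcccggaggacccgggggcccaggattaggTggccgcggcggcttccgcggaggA
Rps2-ps13: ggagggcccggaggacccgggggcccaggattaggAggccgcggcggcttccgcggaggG

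Levels of the members, in counts scaled to the library total (CPM) and divided by the kilobases of a gene's merged exons, spanned 1.97 to 509.6 CPM per kb with a median of 64.2 over all 18 libraries. Rplp1, which with Rplp2 forms the acidic stalk that recruits elongation factors, was the most abundant at 509.6 CPM per kb, followed by Rpl4, a protein that lines the peptide exit tunnel, at 247, and Rpl23a, which sits at the tunnel exit, at 199.9. The stalk base protein Rplp0 stood at 172 and Rplp2 at 98.9 CPM per kb. The level per kb fell with the exon length it was divided by (Spearman's rho = −0.63 across the 77 genes, a description) and bore no such relation to the share of windows held in common with other genes (rho = −0.04).

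By library, Rplp1 had 183, 263, 175, 315 and 185 CPM in 8P, 294, 254, 248 and 335 in 0P, 287, 189.6, 287, 264 and 273 in 8ND and 204, 323, 218 and 279 in 0ND. These values are on the same TMM-scaled CPM scale, which is kept from here on. Every group of libraries overlapped with every other. Rpl4 had 418, 459, 397, 661 and 350.2 CPM in 8P, 639.9, 532, 493 and 668 in 0P, 531, 351, 529, 348 and 513 in 8ND and 446, 593, 443 and 551 in 0ND. Rpl23a had 116, 159, 109, 314 and 107 CPM in 8P, 239, 149, 142 and 326 in 0P, 162, 94.7, 187, 106 and 181 in 8ND and 126, 196, 141 and 192 in 0ND, and library 4 of 8P and libraries 1 and 4 of 0P stood far above the rest of their groups. Rplp0 had 224, 336, 196, 279.9 and 159 CPM in 8P, 323, 295, 318 and 358 in 0P, 355, 211, 363, 266 and 319 in 8ND and 202, 394, 209 and 339.6 in 0ND. Rplp2 averaged 183 ± 54.5 CPM in 8P, 244 ± 59.6 in 0P, 189 ± 56.2 in 8ND and 213 ± 29.9 in 0ND (SD). Rps27a, whose product is made as a fusion with ubiquitin, had 83.8, 129, 82, 212 and 78.9 CPM in 8P, 163, 115, 137 and 294 in 0P, 135, 70, 152, 94.5 and 126 in 8ND and 92.3, 148, 111 and 131 in 0ND. Libraries 1, 3 and 5 of 8P and library 2 of 8ND were low for all 3 of these members, and every pair of groups overlapped.

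The least abundant members were Rpl24 at 1.97, Rps10 at 2.37 and Rpl13a at 7.86 CPM per kb. These 3 were also the members whose mRNA lay mainly in exons that another annotated gene has on the same strand. The overlapping share of the mRNA was 71.5% for Rpl24, with Gm28037, 59.3% for Rpl13a, mainly with Gm45713, and 53.6% for Rps10, with the readthrough gene RPS10-NUDT3. The next highest share was 10.7% for Rpl19, and it was 0% for 73 members. Gm28037 and Gm45713 had 0 counts in each of the 18 libraries. Counters such as htseq-count can leave reads on exons of more than 1 gene uncounted, but the mode used is not given in the sources used here, so the counts of Rpl24, Rps10 and Rpl13a are uncertain as measures of these mRNAs. Rpl24, which joins the subunits as a bridge protein, had 3.18, 1.3, 3.08, 1.47 and 2.41 CPM in 8P, 2.02, 2, 1.64 and 2.36 in 0P, 2.07, 1.82, 1.61, 2.66 and 1.23 in 8ND and 1.97, 1.76, 1.89 and 2.16 in 0ND. Rps10, a small subunit protein, had 5.6, 8.25, 6.97, 4.42 and 4.53 CPM in 8P, 4.21, 6.68, 8.48 and 3.91 in 0P, 5.1, 7.35, 4.07, 3.99 and 4.51 in 8ND and 4.64, 4.57, 4.49 and 6.8 in 0ND. Every pair of groups overlapped for both genes, and Rpl24 rested on 398 counts over all 18 libraries.

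**Figure D1:**
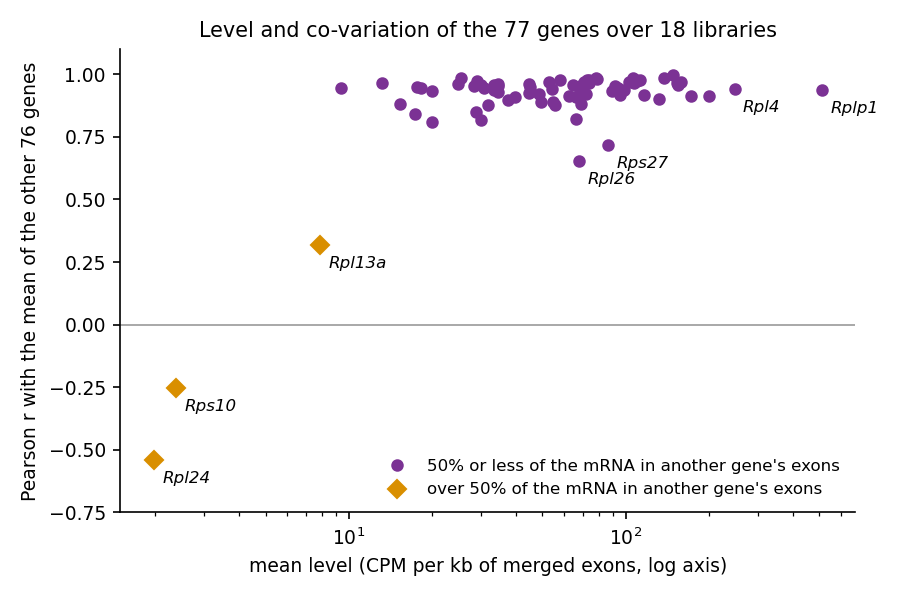
Level and co-variation of the 77 genes. The x axis gives the mean level over 18 libraries in CPM per kb of merged exons on a log axis, and the y axis the Pearson correlation of a gene's deviations from its group means with the mean deviation of the other 76 genes; each point is 1 gene. Diamonds mark Rpl24, Rps10 and Rpl13a, whose mRNA overlaps another gene by over 50%, at the lower left with correlations of −0.54, −0.25 and 0.32.

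Members went up and down together from library to library. After the group means were removed, 83.8% of the variance of the 77 genes lay on their first principal component, against 15.8% for 19870 genes with counts in every library, and the median correlation over the 2926 pairs of members was 0.88 across the 18 libraries. A member's correlation with the mean of the others had a median of 0.95 and a highest value of 0.997. The exceptions were Rpl24 (−0.54), Rps10 (−0.25) and Rpl13a (0.32), followed at a distance by Rpl26 (0.65) and Rps27 (0.72). The points share library preparation and depth, so these values describe the libraries. Within groups the SD of a member had a median of 0.37 on the log2 scale, between 0.23 (Rpl35a) and 0.67 (Rpl26), against a median of 0.35 over all such genes.

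Summed over the family, the members took 0.768, 1.06, 0.702, 1.11 and 0.658% of the counts on genes in the 8P libraries, 1.11, 1.02, 0.973 and 1.25% in 0P, 0.962, 0.676, 1.02, 0.764 and 0.948% in 8ND and 0.806, 1.04, 0.744 and 0.989% in 0ND. The means were 0.86 ± 0.21%, 1.09 ± 0.12%, 0.875 ± 0.15% and 0.894 ± 0.14% in the same order (SD, n = 5, 4, 5 and 4). The 8P group was split, with libraries 2 and 4 inside the range of 0P and libraries 1, 3 and 5 below every 0P library. Large subunit counts exceeded small subunit counts by a ratio of 1.63 to 1.80 in every library. The share of reads on no gene moved against the summed level, with 39.5, 30.6, 40.7, 30.8 and 35.9% in 8P, 29.2, 33.4, 28.3 and 22% in 0P, 28.6, 39, 27.7, 25.9 and 29.8% in 8ND and 39, 26.8, 34.1 and 32.1% in 0ND. Across the 18 libraries Pearson's r was −0.63 and Spearman's rho −0.65, and r was −0.54 without the 2 libraries farthest from the median share. After the group means were removed, r was −0.76 for the members' mean log2 level, a measure other than the summed percentage. Library 8ND 4, the shallowest, stood off this relation, with a low summed level beside a low share on no gene. The share of reads with more than 1 alignment has the same denominator and tended to be high where the share on no gene was low. It was 40.1, 51.8, 40.3, 48 and 45.4% in 8P and 50.9, 45.9, 55.2 and 61.4% in 0P. In ND it was 54.8, 43.3, 54.1, 62.2 and 51.4% in 8ND and 41, 56.6, 46.8 and 49.2% in 0ND. Its relation to the summed level was not tested.

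**Figure D2:**
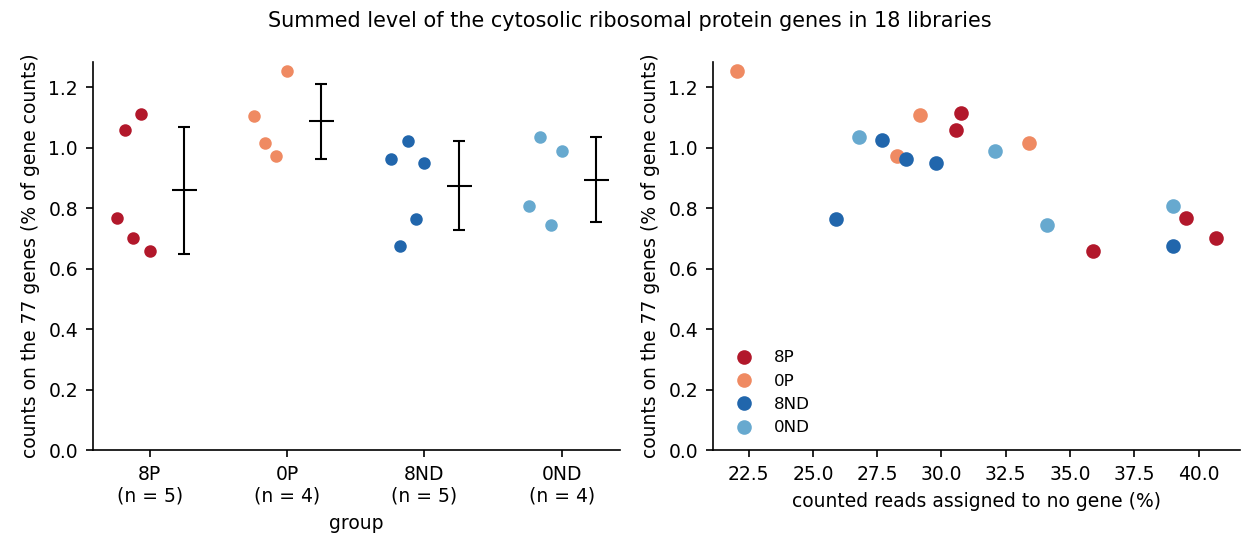
Summed level of the family. The left panel plots counts on the 77 genes as a percentage of counts on genes for each library by group, with the group mean and SD as bars, and the right panel plots the same percentage against the percentage of reads assigned to no gene. In 8P, libraries 1, 3 and 5 lie below all 4 libraries of 0P, and libraries with over 35% of reads on no gene all lie below 0.81%.

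Polypoid lesions of mice on 8 and 0 mg/kg FA were compared first. In 8P against 0P the median member stood at −0.38 on the log2 scale, between −0.65 and 0.41, with 74 of the 77 members below 0 where 49.3% of all genes tested were, but no member passed the test. By edgeR's quasi-likelihood test with Benjamini-Hochberg adjustment 0 members and 0.0% of the genes tested had an adjusted p under 0.05, and DESeq2 and limma-voom called 0 members too. At an unadjusted p under 0.05 edgeR had 13 members, all lower, where 10.1% of all genes were at that level and 4.47% were lower, DESeq2 had 19 and limma-voom 33. The edgeR count depended on single libraries and was 0 without 8P 3 or without 8P 5, 2 without 8P 1 or without 0P 4, 3 without 0P 1, 30 without 8P 2 and 56 without 8P 4. The share of all genes at an unadjusted p under 0.05 was taken for the main edgeR fit only. Here and below, such counts from other fits therefore have no background and cannot be read as high or low. The smallest adjusted p was 0.465. Large subunit members had a median of −0.36 and small subunit members one of −0.39.

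Single members give the shape of this difference. Rpl27 had 25, 34.6, 22.4, 39.2 and 20.7 CPM in 8P and 43.5, 31.3, 34.7 and 49.7 in 0P, a log2 fold change of −0.49 ± 0.19 (SE). Rpl18 had 38.3, 54.5, 34.7, 58.5 and 34.2 CPM in 8P and 67.2, 55.9, 59.4 and 65.4 in 0P, a change of −0.49 ± 0.20 with adjusted p = 0.468 in edgeR. Rpl36 had 33.6, 49.5, 28.9, 62.4 and 29.2 CPM in 8P and 65, 52, 56.6 and 75.6 in 0P (−0.61 ± 0.25). In each of these 3 members libraries 1, 3 and 5 of 8P were below all of 0P, library 4 was within its range, and library 2 was within it for Rpl27 only. Rpl41, a very small basic protein, had 122, 207, 92.8, 222 and 116 CPM in 8P and 259.9, 187, 223 and 283 in 0P, which gave the lowest value of the family (−0.65 ± 0.29). Rpl38, which in the mouse is needed for the translation of Hox mRNAs, had 38.6, 58.9, 33.3, 86.4 and 35.1 CPM in 8P and 87.9, 58.5, 60.7 and 101 in 0P (−0.61 ± 0.30). In the small subunit Rps14 had 51.9, 87.2, 62.5, 81.2 and 56.1 CPM in 8P and 82.6, 74.6, 92.5 and 118 in 0P (−0.44 ± 0.19) and Rps18 had 56.9, 77.7, 57, 78.4 and 53.7 CPM in 8P and 93.6, 73, 84.4 and 92.5 in 0P (−0.41 ± 0.17), with libraries 2 and 4 of 8P inside the 0P range for both. Above 0 stood Rpl26 (0.41 ± 0.43), with 145, 138, 91.6, 159 and 93 CPM in 8P and 92.1, 52.6, 55.3 and 178 in 0P, and the overlapped genes Rpl24 (0.19 ± 0.29) and Rps10 (0.04 ± 0.27). No member had groups that did not overlap, where 0.89% of all genes were lower and 1.36% higher without overlap.

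The median moved to −0.18 when 8P 3 and 8P 5, the 8P libraries with the lowest summed level, were left out together. Taking out the lowest 8P libraries raises the estimate by construction, and without 8P 4, the highest, the median was −0.52. The median was −0.03, with 31 members above 0, when the share of reads on no gene entered the fit as a covariate. The part of that share in the difference was not tested otherwise.

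In epithelium without dysplasia no member passed the test between FA doses. The family's median was −0.04 in 8ND against 0ND, with 20 of 77 members above 0 where 50.6% of all genes were. Single libraries turned this direction, with 57 members above 0 without 8ND 2 (median 0.06), 44 without 8ND 4 (0.02), 52 without 0ND 2 (0.06) and 46 without 0ND 4 (0.02), but 5 without 8ND 3 (−0.14) and 3 without 0ND 1 (−0.13). By edgeR 0 members had an adjusted p under 0.05, where 0.0481% of all genes did, 0 had an unadjusted p under 0.05, where 9.91% of all genes did, and DESeq2 and limma-voom likewise called 0 members (DESeq2 had 1 and limma-voom 0 at an unadjusted p under 0.05). The median SE of a member was 0.22 on the log2 scale. Rpl26, a large subunit protein near the tunnel exit, had the highest estimate at 0.81 ± 0.44 (SE, adjusted p = 0.6 in edgeR). It had 202, 67.7, 64, 45 and 138 CPM in 8ND and 40.7, 80.2, 48.8 and 68.2 in 0ND, and libraries 1 and 5 of 8ND alone stood above the range of 0ND. Rpl35, a protein at the tunnel exit, had the lowest estimate at −0.29 ± 0.28, with 98, 49.9, 91.1, 65.5 and 82.2 CPM in 8ND and 71.5, 128, 81.2 and 98.9 in 0ND. Rpl5, which carries 5S ribosomal RNA, had 274, 125, 275, 166 and 257 CPM in 8ND and 192, 343, 227 and 298 in 0ND (−0.27 ± 0.28). In both of these genes the lowest library was 8ND 2 and the highest 0ND 2. Rps27 stood at −0.23 ± 0.16, and Rpl29 (0.19 ± 0.43) and Rpl30 (0.17 ± 0.18) followed Rpl26 at the top. No member had groups that did not overlap, where 2.15% of all genes were higher and 1.8% lower without overlap.

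Between polypoid lesions and epithelium without dysplasia at 0 mg/kg FA, few members passed the test although many other genes did. Rpl13a and Rpl7 rose and Rps27 fell in 0P, 3 of 77 members, where 31.6% of all genes passed the test (15.9% higher and 15.7% lower). The median member stood at 0.22, between −0.50 and 0.71, with 72 members above 0 where 47.6% of all genes were. The median SE of a member was 0.24, so a shift of this size could hardly be called gene by gene. The median was −0.04, with 35 members above 0, when the share of reads on no gene entered the fit as a covariate. No member reached a 2-fold change, a size that 3299 of all genes reached together with an adjusted p under 0.05.

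Rps27 (mm10, chr3:90212522-90213651, minus strand, 4 exons in its mRNA) encodes a small subunit protein with a zinc finger, and its mRNA start is shown above with the pyrimidine run. It had 57.9, 82.4, 65.1, 84.9 and 61.6 CPM in 8P, 90.2, 86.9, 71.3 and 72.8 in 0P, 89.2, 69.5, 113, 109 and 105 in 8ND and 95.9, 138, 98.8 and 123 in 0ND. All 4 libraries of 0P were below all 4 of 0ND, as were 16.1% of all genes, and the log2 fold change was −0.50 ± 0.16 (SE, edgeR adjusted p = 0.0248). The call was lost without 0P 3 (−0.42, adjusted p = 0.0973), 0P 4 (−0.46, adjusted p = 0.0738), 0ND 2 (−0.40, adjusted p = 0.0883) or 0ND 4 (−0.46, adjusted p = 0.0659), all in edgeR. Of the 50-base windows inside an exon of its mRNA 0% were unique to it, so reads of that length inside an exon match another annotated gene too. Reads with more than 1 alignment were left uncounted and the read length is not given, so which reads make up its count is not known. Rps27rt, with the same coding sequence, had 5.41 ± 1.22 CPM in 8P, 4.72 ± 1.92 in 0P, 4.49 ± 0.729 in 8ND and 5.13 ± 1.86 in 0ND (SD) and a log2 fold change of −0.13 ± 0.30. Rps27l, a paralog outside the rule whose human form is a p53 target, had 21.9, 18.5, 24.9 and 29.5 CPM in 0P and 11.1, 22, 11.6 and 16.1 in 0ND. It went the other way, by 0.66 ± 0.22 (edgeR adjusted p = 0.0296), with groups that overlapped.

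Rpl13a (mm10, chr7:45125558-45128761, minus strand, 8 exons), a large subunit protein that in human cells also has a role outside the ribosome in silencing inflammatory mRNAs, had 18, 25, 18.5, 21.3 and 14 CPM in 8P, 20.6, 18.9, 24.9 and 18.4 in 0P, 14.3, 17.1, 14.7, 12.8 and 10 in 8ND and 12.1, 16.7, 9.33 and 12.6 in 0ND. Each library of 0P was above each of 0ND, and the log2 fold change was 0.71 ± 0.20 (edgeR adjusted p = 0.0104). It was called under 33 of 34 alternatives, with the exception of the scaling to the summed family (0.50, adjusted p = 0.266). This is 1 of the 3 members whose mRNA overlaps another gene by over 50%, and the one of them that varied in part with the rest of the family.

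Rpl7 (mm10, chr1:16101295-16104662, minus strand, 7 exons), a large subunit protein, had 258, 321, 229, 468 and 209.8 CPM in 8P, 379, 330.3, 313 and 439.9 in 0P, 291, 174, 288, 200.2 and 283 in 8ND and 195, 286, 211 and 268 in 0ND. The 0P and 0ND groups did not overlap and the change was 0.61 ± 0.23 (edgeR adjusted p = 0.0472). This call was the least stable of the 3 and was held under 18 of 34 alternatives. It was lost without 8P 1, 8P 2, 8ND 1, 8ND 3 or 8ND 5, which enter only the estimate of the spread and the scaling. Among libraries of the 2 groups it was lost without 0P 1 (0.59, adjusted p = 0.0816), 0P 2 (0.65, adjusted p = 0.058), 0P 4 (0.51, adjusted p = 0.144), 0ND 1 (0.52, adjusted p = 0.129), 0ND 3 (0.55, adjusted p = 0.117) or 0ND 4 (0.66, adjusted p = 0.0604), all in edgeR. Rpl10a (mm10, chr17:28328471-28331033, plus strand), a protein of the stalk that guides deacylated tRNA out of the ribosome, was also higher without overlap, with 56.5, 78.1, 57.3, 89.2 and 50.5 CPM in 8P, 101, 82.4, 81.5 and 95.6 in 0P, 69.4, 43.9, 76.2, 56.2 and 72.1 in 8ND and 56, 79.5, 50.5 and 75.9 in 0ND, but did not pass the test (0.46 ± 0.20, edgeR adjusted p = 0.0799). The 3 members that were higher without overlap compare with 16.2% of all genes. Rpl27 (0.53 ± 0.21, edgeR adjusted p = 0.0575) and Rpl3 (0.52 ± 0.24, edgeR adjusted p = 0.103), the protein nearest to the peptidyl transferase centre, came next. Rpl3 had 219, 196, 234 and 256 CPM in 0P and 134, 202, 142 and 152 in 0ND, which overlapped through library 2 of each group. At the other end Rpl9 (−0.11 ± 0.22) and Rps15 (−0.09 ± 0.28) followed Rps27 with values near 0.

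**Figure D3:**
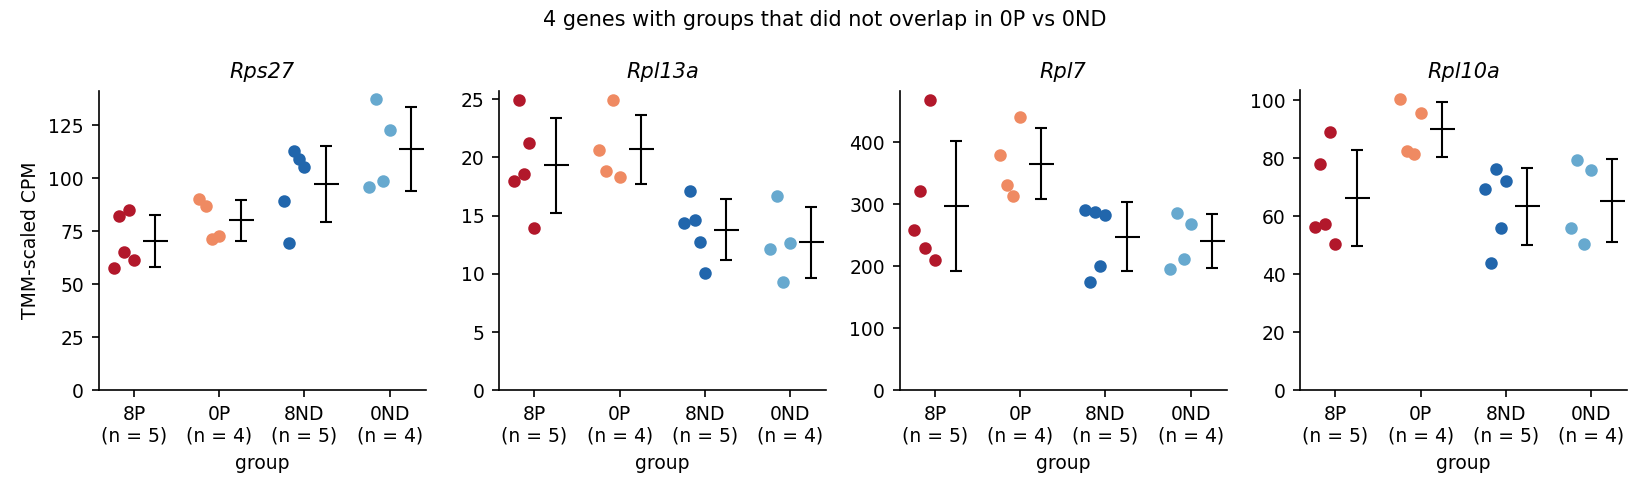
Level of Rps27, Rpl13a, Rpl7 and Rpl10a by library. The y axes give TMM-scaled CPM from 0, points are libraries in the groups 8P, 0P, 8ND and 0ND, and bars are the group mean and SD. Rps27 was lower in 0P (71.3 to 90.2 CPM) than in 0ND (95.9 to 138 CPM), whereas Rpl13a, Rpl7 and Rpl10a were higher in every 0P library than in any 0ND library.

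With 8 mg/kg FA, Rps27 alone passed the test between polypoid lesions and epithelium without dysplasia, 1 of 77 members where 28.2% of all genes did. Its log2 fold change was −0.46 ± 0.15, lower in 8P (SE, edgeR adjusted p = 0.0231), and the groups overlapped, since 8ND 2 at 69.5 CPM lay among the 8P libraries. Leaving out 1 library ended the call for 8P 1 (−0.40, adjusted p = 0.0677), 8P 5 (−0.42, adjusted p = 0.0582), 8ND 3 (−0.40, adjusted p = 0.0666), 8ND 4 (−0.42, adjusted p = 0.0559) and 8ND 5 (−0.43, adjusted p = 0.0542), all in edgeR. Rpl13a was at 0.48 ± 0.18 (edgeR adjusted p = 0.0506), just short of a call, and was called under 12 of 34 alternatives. Rps16, a small subunit protein near the decoding site, had the lowest estimate, −0.54 ± 0.23, with 41.8, 75, 35.3, 56.8 and 34 CPM in 8P and 75.4, 45.2, 86.8, 63.9 and 80.3 in 8ND, and was called without 8P 2 (−0.74, adjusted p = 0.0156) or without 8ND 2 (−0.66, adjusted p = 0.0379). Rpl30 (−0.30 ± 0.17) and Rps15 (−0.42 ± 0.25) were next by p. Rps15 had 43.7, 70.1, 35.2, 61.3 and 34.2 CPM in 8P and 76.3, 40.6, 82.8, 47.1 and 79.6 in 8ND. No member was higher or lower without overlap, where 8.26% of all genes were higher and 8.94% lower.

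The median member was at −0.09 with 22 of 77 above 0, where 50.1% of all genes were. With 1 library left out the median lay between −0.28 (without 8P 4) and −0.01 (without 8ND 3). Its sign turned in other fits. The median was 0.11 without 8P 3 and 8P 5, the lowest 8P libraries, whose removal raises it by construction. It was 0.17 with the share of reads on no gene in the fit. Under that fit Rpl7, Rpl3 and Rps15a were called as higher and Rps27 was not called (−0.28, edgeR adjusted p = 0.123).

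Whether the dose effect differed between lesions and epithelium without dysplasia was tested by the interaction, 8P vs 0P minus 8ND vs 0ND. The median was −0.33 with 74 of 77 members below 0, where 51.2% of all genes were, and 0 members passed, as did 0.0% of all genes. At an unadjusted p under 0.05 edgeR had 0 members, where 10.4% of all genes reached it, DESeq2 0 and limma-voom 1, with 0 members called by either after adjustment. Rpl30 (−0.52 ± 0.25, edgeR adjusted p = 0.495), Rpl27 (−0.53 ± 0.28), Rps2 (−0.50 ± 0.29), Rplp0 (−0.52 ± 0.31) and Rps25 (−0.51 ± 0.32) had the smallest p-values. Rpl30 had 64.4, 102, 72.5, 79.4 and 62.5 CPM in 8P, 93.4, 91.5, 97.4 and 103 in 0P, 101, 65.4, 124, 76.1 and 103 in 8ND and 66.6, 111, 72.7 and 83.4 in 0ND. Each 0P library lay above libraries 1, 3, 4 and 5 of 8P, whereas 8ND and 0ND overlapped widely. With the share of reads on no gene as a covariate the median of the interaction was 0.18. The 4 comparisons share libraries with each other, so the values of a member in them are not independent.

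Genes of the machinery that makes and uses ribosomes were set beside the members. Of 71 ribosome biogenesis genes, which process ribosomal RNA and assemble subunits, 54 rose and 1 fell in 0P against 0ND, with a median of 0.68, and 35 rose and 2 fell in 8P against 8ND, with a median of 0.35. That is 77.5% and 52.1% of the list called, beside 31.6% and 28.2% of all genes. Ltv1, an assembly factor of the small subunit, rose by 1.63 ± 0.22 in 0P and by 1.10 ± 0.20 in 8P on the log2 scale, and Nhp2, a protein of the particles that modify ribosomal RNA, rose by 1.36 ± 0.18 in 0P (edgeR adjusted p = 1.63e-05). Utp20, a factor of early processing, fell by 1.17 in 0P and by 1.09 in 8P on the log2 scale. The same list had medians of −0.24 in 8P against 0P and 0.04 in 8ND against 0ND, with 0 of 71 called in each.

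Of 39 translation factors tested, 17 rose and 0 fell in 0P against 0ND, and 9 rose and 0 fell in 8P against 8ND. The called share was 43.6% beside 31.6% of all genes in the first and 23.1% beside 28.2% in the second. Pabpc1, the poly(A) binding protein, whose mRNA also carries a TOP motif, had 1492, 1293, 1343, 1687 and 1273 CPM in 8P, 1329.7, 1628, 1599 and 2237 in 0P, 1043, 727, 716, 687 and 814 in 8ND and 711, 683, 770.3 and 713 in 0ND. Every P library was above every ND library, and the log2 fold changes were 0.83 ± 0.14 in 8P against 8ND and 1.24 ± 0.15 in 0P against 0ND. The mitochondrial ribosomal proteins, which serve a separate ribosome, had 6 higher and 3 lower of 76 in 0P against 0ND (median 0.18) and 2 higher and 6 lower in 8P against 8ND (median −0.08), 11.8% and 10.5% called beside 31.6% and 28.2% of all genes. In 8P against 0P the medians were −0.38 for the members, −0.24 for biogenesis, −0.24 for translation factors, −0.17 for mitochondrial ribosomal proteins and 0.00 for genes of Myc and mTORC1 control, with 0 genes called in any of them.

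**Figure D4:**
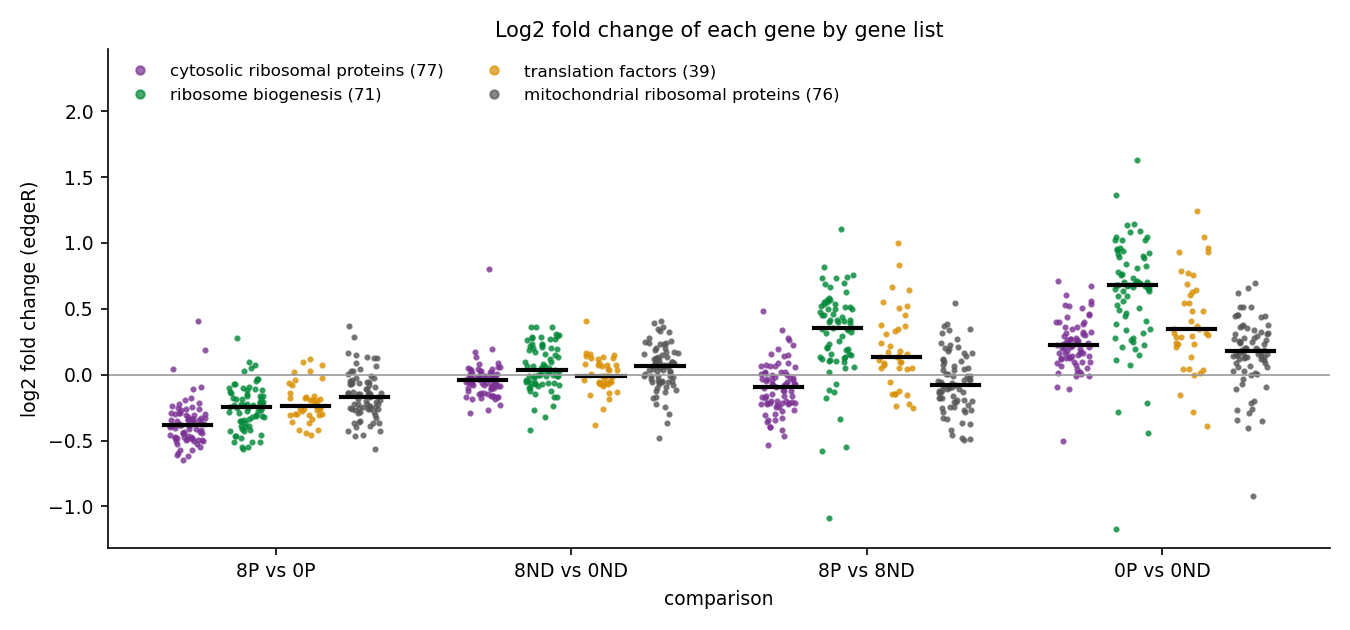
Log2 fold change of single genes by list. Each point is 1 gene, black bars are medians, and the y axis gives edgeR's log2 fold change in the 4 comparisons on the x axis, with the group named first on top. The members' median (0.22) lay below that of the biogenesis genes (0.68) in 0P vs 0ND and on the other side of 0 (−0.09 against 0.35) in 8P vs 8ND.

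Genes that control ribosomal protein synthesis were set beside the members as well. Of 28 genes of Myc and mTORC1 control, 4 rose and 6 fell in 0P against 0ND and 3 rose and 8 fell in 8P against 8ND, so that 35.7% and 39.3% of the list was called beside 31.6% and 28.2% of all genes. Myc, a transcription factor that drives ribosomal protein and biogenesis genes, had 44, 41.7, 59.4, 70.4 and 41.5 CPM in 8P, 52.5, 62.8, 60.5 and 57.6 in 0P, 35.6, 28.3, 33.3, 29.3 and 28.7 in 8ND and 20.2, 24.4, 19.9 and 18 in 0ND. All P libraries were above all ND libraries, and on the log2 scale Myc rose by 1.50 ± 0.16 in 0P (edgeR adjusted p = 2.79e-06) and by 0.73 ± 0.14 in 8P (edgeR adjusted p = 0.0008). Larp1 rose by 0.52 ± 0.12 in 0P (edgeR adjusted p = 0.00252) and was at 0.21 ± 0.11 in 8P (edgeR adjusted p = 0.165). Rps6kb1, an S6 kinase, was at 0.15 ± 0.14 in 0P and 0.23 ± 0.13 in 8P and did not pass. Mxd1, an antagonist of Myc, fell by 1.91 and 1.57 on the log2 scale in 0P and 8P, and Deptor, an inhibitor of mTOR, fell by 1.45 and 1.31.

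Some ribosomal protein genes fall outside the naming rule. Fau, which encodes Rps30 as a fusion with a ubiquitin-like protein, had 64.7, 96, 59.8, 104 and 56.4 CPM in 8P, 135, 97.5, 103 and 135 in 0P, 117, 69, 133, 79.1 and 124 in 8ND and 99.6, 147, 102 and 148 in 0ND. Libraries 1, 2, 3 and 5 of 8P were below all of 0P, with an estimate of −0.63 ± 0.22 in 8P against 0P (unadjusted p = 0.0102, edgeR adjusted p = 0.465). Of the 4 paralogs tested, Rpl7l1 (0.52 ± 0.15, edgeR adjusted p = 0.0121) and Rps27l rose in 0P against 0ND, and 0 of 4 were called in the other comparisons.

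The tables listed 302 names of -ps copies, and 258 of them had counts. Together they held 37832 counts, 2.11% of the 1789768 counts of the members, and the ratio was 1.77 to 2.51% by library. The 5 copies with most counts were Rpsa-ps10 (5410), Rps2-ps13 (4939), Rpl17-ps8 (2357), Rpl3-ps1 (1865) and Rpl34-ps1 (1608). Rps2-ps13, shown above beside its parent, had 15.9, 34.5, 16.7, 31.4 and 13 CPM in 8P, 37.7, 30.6, 30.9 and 36.2 in 0P, 27.2, 13, 33.9, 19.2 and 27.1 in 8ND and 18.7, 34.5, 18.5 and 29.9 in 0ND, and reached 72.1% of the counts of Rps2 over all libraries. Its ratio to Rps2 lay between 0.515 and 0.853 in 8P, 0.665 and 0.859 in 0P, 0.524 and 0.796 in 8ND and 0.646 and 0.793 in 0ND. Rps2 itself had 26.9, 45.9, 27, 36.8 and 25.4 CPM in 8P, 44.4, 46, 43.5 and 42.2 in 0P, 35.3, 24.7, 42.6, 35.7 and 40.6 in 8ND and 28.9, 47.5, 23.4 and 38.1 in 0ND. With 7 differing bases in 879, reads of the pair can be swapped by an aligner, so both values are uncertain.

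Rpsa-ps10, a copy of the laminin receptor gene Rpsa, varied far more than its parent, with 28, 1.19, 0.567, 22.3 and 13 CPM in 8P, 49.7, 46.6, 18.2 and 47.8 in 0P, 43.9, 1.11, 61.8, 16.8 and 27.1 in 8ND and 34.2, 48.2, 14.4 and 26.3 in 0ND. It was lowest by far in 8P 2, 8P 3 and 8ND 2, and passed in no comparison. Of 35 -ps copies tested, Rpl23a-ps14 rose in 0P against 0ND (2.87 ± 0.77, edgeR adjusted p = 0.00748) and in 8P against 8ND (2.36 ± 0.73, edgeR adjusted p = 0.0203), and Rpl19-ps3 rose in 0P against 0ND, where 3 of the 4 libraries of 0ND had 0 counts. These were 2 and 1 of 35 copies, against 31.6% and 28.2% of all genes. The wider set of 1067 pseudogenes that share a 50-base window with a member held 6.87% as many counts as the members. Adding the -ps counts to their parents changed no call of a member in any of the 4 comparisons.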

How the data were processed

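RNA-Seq libraries came from 18 samples of microdissected colonic epithelium (8P, 0P, 8ND and 0ND), prepared with a stranded kit for low RNA inputs. The authors deposited raw counts of reads by gene name, 1 table a library. Bowtie with the mm10 genome and HTSeq are named in the processing notes and methods. Not given in the sources used here are versions, counting mode, strand setting, read length and annotation release. Bowtie by itself does not align across exon junctions, which a median of 27.9% of the members' 50-base mRNA windows span, and reads with more than 1 alignment were left in a summary line. The 5 summary lines stayed out of library sizes and tests (22 to 40.7% of reads on no gene, 0.22 to 0.384% ambiguous).

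Counts were fitted with edgeR 4.0.16 (limma 3.58.1, R 4.3.3), TMM, filterByExpr with a minimum count of 10, 1 mean per group over all 18 libraries and robust quasi-likelihood F tests, with Benjamini-Hochberg adjustment over the 20787 genes tested. The method was tested on simulated data. DESeq2 1.42.0, limma-voom, other scalings and filters, a replicate block, leaving out libraries and adding copies to their parents were alternatives. The members, gene lists and tests were chosen with earlier results of these data known. The members named were the 3 most and 3 least abundant, the 5 with the smallest p in each comparison, the 3 highest and 3 lowest by fold change, the stalk proteins and Rps27a, with values in every library where a result turns on them; Rps6, Rpl35a and Rps15a were added. Of the lists, the genes with the smallest p were named, with Myc, Larp1, Rps6kb1 and Fau, and of the copies the 5 with most counts. Some items are not reported here. Gene models were from GENCODE M21 and promoter windows from RefSeq. Libraries of a group were compared pairwise and none differed by less than sampling noise (chi-square per gene 9.29 to 58.6). The labels do not say whether equal replicate numbers mark the same mouse, and the main fit holds no pairing. All counts cover counting error of reads, not of molecules.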

Additional observations from a re-analysis of the deposited data

Results flagged for a closer look

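Dixon's test of the highest or lowest library in a group was run for 28 named members and for the summed level in each of the 4 groups, 116 sets of libraries in all, of which chance flags about 1 in 20. It marked 4. Rpl23a was at 314 CPM in 8P 4, where the other 8P libraries had 107 to 159 CPM. Rplp1 was at 189.6 CPM in 8ND 2, against 264 to 287 CPM in the other 8ND libraries. Rps10 was at 6.8 CPM in 0ND 4, against 4.49 to 4.64 CPM in the rest of 0ND. Rps15 was at 72.5 CPM in 0P 1, against 57.3 to 59.6 CPM in the rest of 0P. The summed level of the family was marked in no group.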

How the results depend on the processing

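Of 34 alternatives, 18 left out 1 library each. No member was called in 8P against 0P, in 8ND against 0ND or in the interaction under any of them. The block by dose and number gave no value for the first and second of these, and the fit of only 2 groups none for the interaction. In 0P against 0ND, where 3 members were called, the count was 1 to 5 with 1 library left out, 6 with library totals in place of TMM, 6 with only the 2 groups in the fit and 1 relative to the summed members. In 8P against 8ND, where 1 was called, it was 0 to 3 with 1 library left out, 2 with DESeq2, RLE size factors, library totals, the exon length offset or 8ND 1 and 8ND 2 left out, 3 with the share of reads on no gene as a covariate, and 0 with only the 2 groups in the fit or relative to the summed members. Rpl13a, Rps27 and Rpl7 in 0P against 0ND and Rpl13a, Rps27 and Rps16 in 8P against 8ND kept their sign under all 34. The covariate, the joint removal of 8P 3 and 8P 5 and the scaling to the members were chosen after seeing the data. By construction the joint removal raises the 8P estimates, and the scaling sets the family's median near 0.

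The replicate number as a block gave 2 members in 0P against 0ND (Rpl13a and Rps27) and 2 in 8P against 8ND (Rpl13a and Rps27), and the block by dose and number gave 2 and 1. Same-numbered libraries of P and ND deviated together weakly and not in every pair. Their mean correlation was 0.103 between 0P and 0ND, against −0.034 for other pairs. Between 8P and 8ND it was 0.098, against −0.024 for other pairs. The lowest correlations were 0.026 and −0.079, and 3 of 4 and 2 of 5 libraries correlated best with their own number. Whether they share animals cannot be told from these values. Libraries of a group differed in the family's median deviation with a pooled SD of 0.338 on the log2 scale.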
